A study of Mus musculus with 6 samples.

Results

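The vascular endothelial growth factor (VEGF) and angiopoietin family was examined in the hearts of Mc4r knockout (Mc4r KO) and wild-type (WT) mice. Its members were taken from the deposited gene table by name and were 10 of the 54532 genes listed, with 6 ligands (Vegfa, Vegfb, Vegfc, Pgf, Angpt1 and Angpt2) and 4 receptors (Flt1, Kdr, Flt4 and Tek). The groups were 3 homozygous Mc4r KO mice and 3 WT littermates of 12 weeks, all on a C57B/6/N background and fed standard chow, with 1 RNA library per mouse. The knockout is carried in every tissue of the animal, and how the allele was made is not given in the sources used here. Mc4r encodes a melanocortin receptor known for its role in the hypothalamus, and the study asked which genes differ in the heart before cardiac function is impaired.

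VEGF ligands bind receptor tyrosine kinases on endothelial cells. Signalling from VEGF-A through Kdr drives the growth and permeability of blood vessels, Flt1 binds the same ligand tightly and limits its access to Kdr, and Flt4 serves mainly lymphatic vessels through VEGF-C. The angiopoietins act on Tek (also called Tie2), where angiopoietin-1 activates the receptor and stabilises vessels and angiopoietin-2 can oppose it. In the heart, cardiomyocytes are a main source of VEGF-A and VEGF-B, and the receptors are expressed by the dense capillary endothelium that surrounds them.

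Expression is given as FPKM, a fragment count corrected for the length of the gene and scaled between libraries, so levels can be compared between genes. Between 14691076 and 16047003 reads were counted on genes per library. The libraries carried heart muscle transcripts, since all 8 cardiomyocyte markers were measured, with a summed FPKM of 13827 to 14761 in WT and 16820 to 18382 in Mc4r KO mice. The tissue is given as heart in the labels and as left ventricle in the text of the study. The word muscle in the sample titles was not matched by skeletal muscle genes, because Myh4 was at 0 in every library and the 6 markers summed to at most 2.25 FPKM. Atrial transcripts set the libraries apart, as Myl7, the atrial myosin light chain, was at 0.240, 28.1 and 307.0 FPKM in WT mice and at 38.8, 0.558 and 0.528 in Mc4r KO mice, in replicate order here and throughout. All 4 atrial markers were highest in WT replicate 3. Their sums are given beside Angpt1.

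None of the 10 genes was called between the groups by limma, for which 2 conditions were set, an adjusted p under 0.05 and a log2 fold change beyond 0.75 in either direction. Of all 18035 genes tested 0.46% were called, and 0.582% met the first condition, which no member did either. With limma voom on reads recovered from the FPKM values, 0 members were called, beside 1.76% of all genes. Flt1 came nearest, with a level 1.39 times that of WT in the Mc4r KO mice (limma adjusted p = 0.102). At an unadjusted p under 0.05 there were 2 of the 10, Flt1 and Vegfb, both higher in the Mc4r KO mice, against 12% of all genes tested in that direction. The 3 Mc4r KO libraries were all above the 3 WT libraries for Flt1, Vegfb and Flt4, and for no member were they all below. Such separation was seen in 26.4% of all genes tested, 14.1% higher and 12.4% lower. The sign of the log2 fold change was positive for 7 of the 10 genes, beside 48.8% of all genes tested. Its median was 0.17 for the 4 receptors and -0.0091 for the 6 ligands, beside -0.011 for all genes tested. All 10 members passed the filter on low values. Mitochondrial transcripts held 47.1% to 59.3% of the FPKM sum in WT and 43.0% to 46.6% in Mc4r KO libraries, and scaling outside that chromosome moved the median of all genes by -0.18 on the log2 scale and turned Kdr, Tek and Pgf negative.

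**Figure D1:**
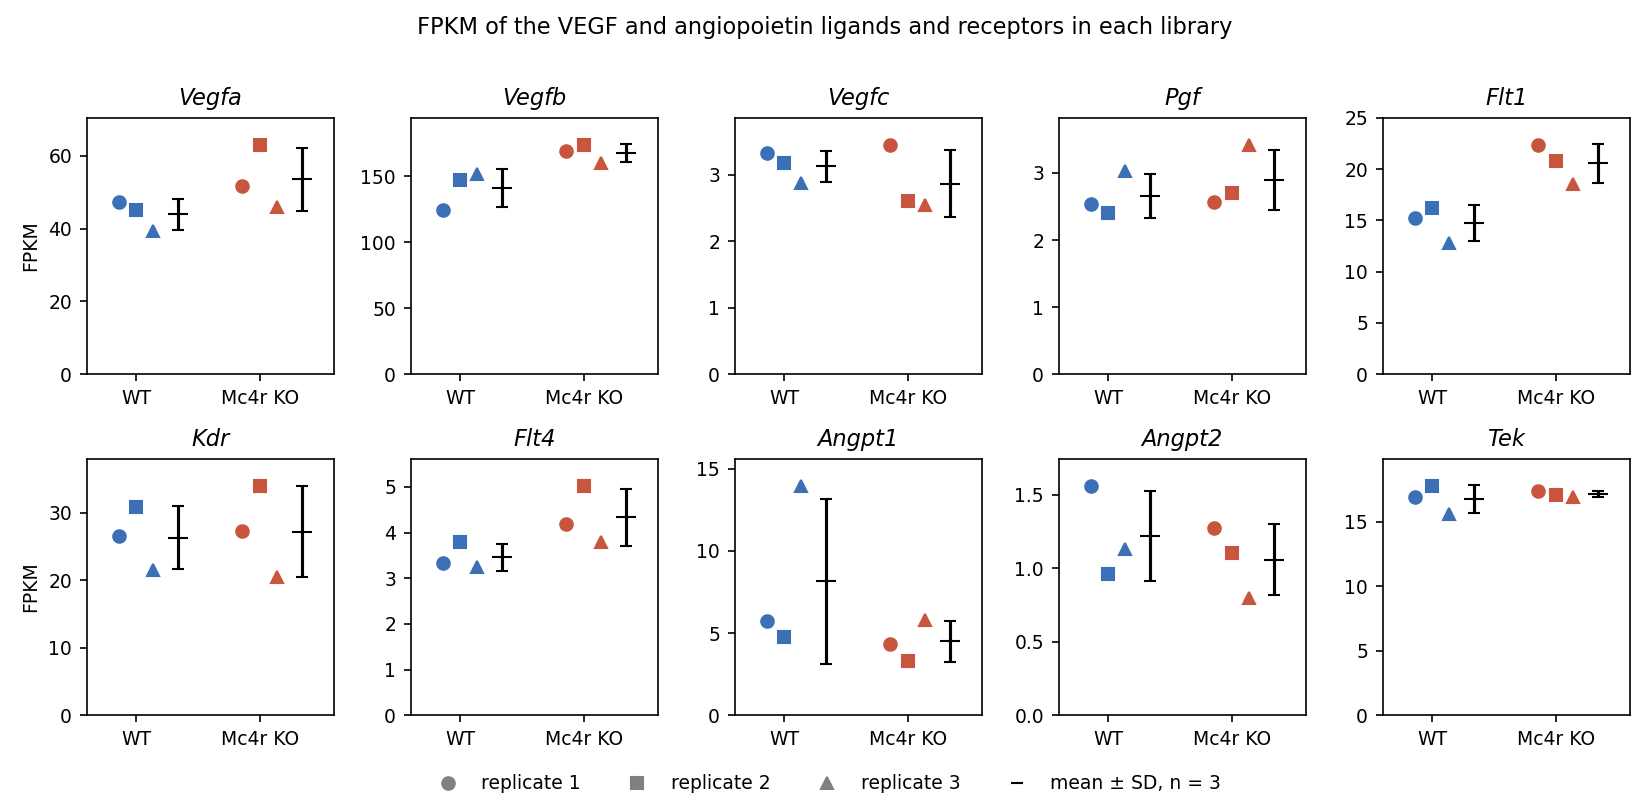
FPKM (vertical axis, from 0) of the 10 genes in each library, with WT in blue and Mc4r KO in red, 1 symbol per replicate, and the mean with its SD (n = 3) in black. The groups are apart for Vegfb, Flt1 and Flt4, and the WT spread of Angpt1 comes from replicate 3 at 13.9.

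The 10 genes spanned a 136-fold range of mean level. Vegfb was highest at 154.5 ± 17.7 FPKM (SD over all 6 libraries), followed by Vegfa at 48.7 ± 8.03, and both lay above all lower genes in every library. Kdr, Flt1 and Tek followed at 26.8 ± 5.21, 17.7 ± 3.59 and 17.0 ± 0.715 FPKM, and neighbours in this order overlapped across libraries. Angpt1, Flt4, Vegfc and Pgf formed a lower tier with means of 6.32, 3.90, 3.00 and 2.78 FPKM, again with overlap between neighbours, and Angpt2 was lowest at 1.14 ± 0.262. The ligands thus held both ends of the order. The reads behind these levels differed, since Angpt2 rested on 47 to 81 reads per library, Vegfc on 97 to 131 and Pgf on 100 to 159, whereas Kdr had at least 2964.

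Flt1 (ENSMUSG00000029648, chromosome 5 of mm10 (GRCm38) from 147561604 to 147726011) encodes VEGFR1, the receptor of VEGF-A, VEGF-B and placental growth factor. Its FPKM was 15.3, 16.2 and 12.8 in WT mice, compared with 22.3, 20.8 and 18.6 in Mc4r KO mice. Every Mc4r KO library was therefore above every WT library. The means were 20.6 ± 1.90 and 14.8 ± 1.77 (SD, n = 3 each), which gave 0.48 on the log2 scale (standard error, SE, 0.12, unadjusted p = 0.00469, limma adjusted p = 0.102). The fold change had a 95% interval from 1.15 to 1.69. With limma voom on the recovered reads the log2 fold change was again 0.48 and the adjusted p was 0.0395, while the fold stayed short of the threshold for a call. By voom 1 of the 10 members and 4.58% of all genes had an adjusted p under 0.05. The table sums all transcripts of a gene, so the membrane form of Flt1 and the soluble form, which traps ligand, cannot be told apart.

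Kdr (ENSMUSG00000062960, chromosome 5 from 75932827 to 75978458) encodes VEGFR2, the main signalling receptor for VEGF-A. Its FPKM was 26.6, 30.9 and 21.5 in WT mice, compared with 27.2, 33.9 and 20.5 in Mc4r KO hearts. The groups overlapped fully, with the lowest and the highest value both in Mc4r KO mice. Its log2 fold change was 0.033 (95% interval -0.45 to 0.51, limma adjusted p = 0.948), so a difference of up to 1.43-fold was within the interval. The sign was not stable, since quantile normalization gave -0.11 and leaving out Mc4r KO replicate 2 gave -0.14. Scaling to the summed FPKM outside the mitochondrial chromosome gave -0.16, where the median of all genes tested was itself -0.19.

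The levels of the 2 receptors were then set against each other within each library, which removes any scaling between libraries. The Flt1 to Kdr ratio was 0.575, 0.525 and 0.595 in WT hearts, against 0.820, 0.614 and 0.907 in Mc4r KO mice. Flt1 was below Kdr in every library, but the ratio was higher in each Mc4r KO library than in any WT library, with Mc4r KO replicate 2 just above the highest WT value. Against Pecam1, an adhesion molecule of endothelial cells, Flt1 stood at 0.472 ± 0.0209 in WT and 0.582 ± 0.0379 in Mc4r KO mice (SD, n = 3 each), without overlap. Against Cdh5, the cadherin of endothelial junctions, the values were 0.226 ± 0.00697 and 0.332 ± 0.0228 (SD, n = 3 each), again without overlap. The Kdr to Cdh5 ratio was 0.401 ± 0.0257 and 0.435 ± 0.0787 (SD, n = 3 each), and its groups overlapped. The Kdr to Pecam1 ratio went the other way, at 0.839 ± 0.0880 in WT and 0.772 ± 0.209 in Mc4r KO mice (SD, n = 3 each), also with overlap. Tek against Pecam1 was lower in the Mc4r KO mice without overlap, at 0.488 ± 0.0544 beside 0.539 ± 0.00904 in WT (SD, n = 3 each). The Flt4 to Kdr ratio (mean 0.133 in WT and 0.162 in Mc4r KO mice) and the Tek to Kdr ratio (0.647 and 0.657) both overlapped. These ratios are descriptions and were not tested.

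**Figure D2:**
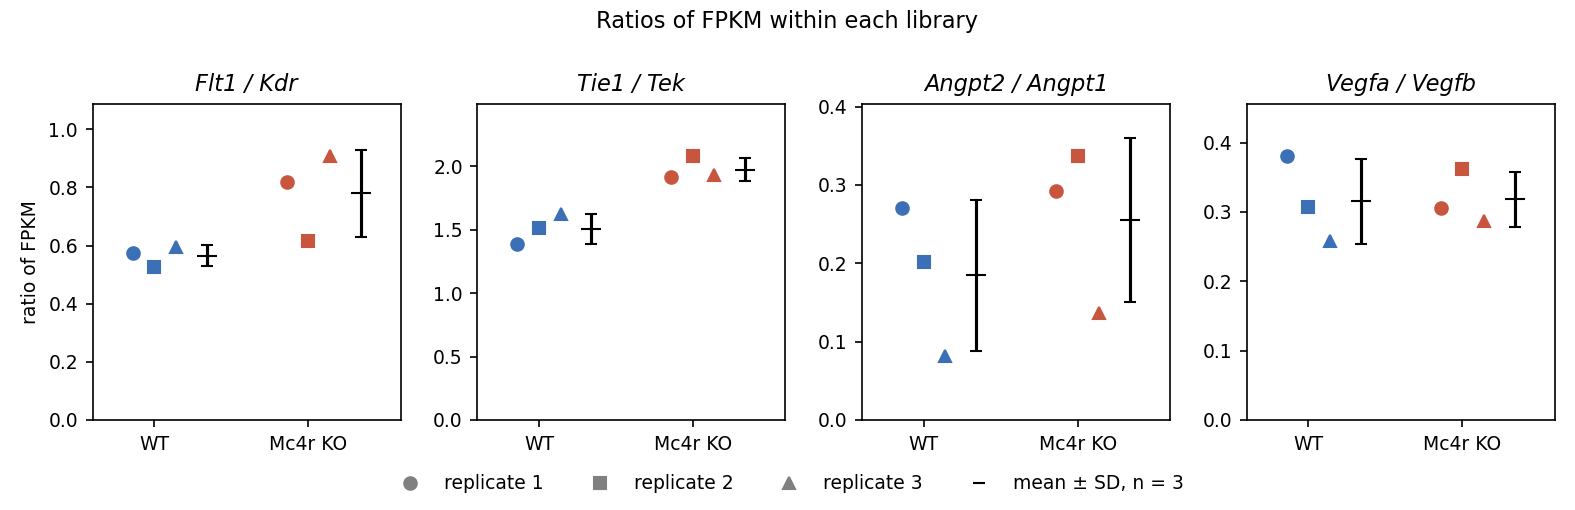
Ratio of the FPKM of 2 genes within each library (vertical axes, from 0), for Flt1 over Kdr, Tie1 over Tek, Angpt2 over Angpt1 and Vegfa over Vegfb, with 1 symbol per replicate and the mean with its SD (n = 3). The groups are apart for Flt1 over Kdr and Tie1 over Tek, at 0.565 against 0.780 and 1.51 against 1.97 on average, and overlap for the ligand ratios shown. Flt1 and Tie1 also separate the groups on their own, and the ratios of Flt4 and Tek to Kdr, not shown, overlap.

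Flt4 (ENSMUSG00000020357, chromosome 11 from 49609263 to 49652739) encodes VEGFR3, the receptor of VEGF-C and VEGF-D. Its FPKM was 3.33, 3.79 and 3.25 in WT mice, compared with 4.19, 5.01 and 3.80 in Mc4r KO hearts. The groups did not overlap, although the lowest Mc4r KO library and the highest WT library were nearly equal. On the log2 scale the fold change was 0.31 (SE 0.13, limma adjusted p = 0.244). Of 5 lymphatic markers 4 had a positive value and none passed the test, and their summed FPKM ran from 19.4 to 25.5 in WT and from 22.4 to 23.9 in Mc4r KO mice. The negative one, named after its value was seen, was Prox1, the lymphatic fate factor that cardiomyocytes also express, at -0.42 (limma adjusted p = 0.123).

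Tek (ENSMUSG00000006386, chromosome 4 from 94739289 to 94874976) was the steadiest of the 10 genes. Its FPKM was 17.0, 17.8 and 15.7 in WT hearts, against 17.4, 17.1 and 17.0 in Mc4r KO mice, a coefficient of variation of 4.21% over all 6. The log2 fold change was 0.032 (95% interval -0.16 to 0.22, limma adjusted p = 0.857). A difference of more than 1.17-fold in either direction lay outside this interval, which holds for the main scaling only. Scaling to the summed FPKM outside the mitochondrial chromosome gave -0.16, where the median of all genes tested was itself -0.19.

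Tie1, the orphan receptor that pairs with Tek on endothelial cells, is shown beside it. Its FPKM was 23.5, 26.9 and 25.4 in WT mice, compared with 33.3, 35.5 and 32.7 in Mc4r KO hearts, and the groups were clearly apart. This gave a log2 fold change of 0.42 (SE 0.084, limma adjusted p = 0.0744), which did not pass the threshold. Over the 17 alternatives the log2 fold change of Tie1 ran from 0.23 to 0.46 and the adjusted p from 0.0344 to 0.315, with 3 of them under 0.05 and none a call. The Tie1 to Tek ratio rested on both genes and was 1.51 ± 0.119 in WT and 1.97 ± 0.0901 in Mc4r KO mice (SD, n = 3 each), without overlap.

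The promoters of these receptors are shown because within each pair, Flt1 with Kdr and Tie1 with Tek, the level of the first gene separated the groups and that of the second did not. ETS factors are known regulators of endothelial genes, and the capitals mark the ETS core, GGAA on either strand (GGAA or TTCC as printed). Each run is the 250 bases before the RefSeq start of the gene on GRCm38.p6, read 5′ to 3′ on the strand of the gene. Flt1 lies at chr5:147726012-147726261 and Kdr at chr5:75978456-75978705, both on the minus strand, while Tie1 lies at chr4:118489850-118490099 on the minus strand and Tek at chr4:94739039-94739288 on the plus strand. The deposited position of Tie1 runs from 118471191 to 118490061, so most of its window lies inside the gene as listed there.
Flt1: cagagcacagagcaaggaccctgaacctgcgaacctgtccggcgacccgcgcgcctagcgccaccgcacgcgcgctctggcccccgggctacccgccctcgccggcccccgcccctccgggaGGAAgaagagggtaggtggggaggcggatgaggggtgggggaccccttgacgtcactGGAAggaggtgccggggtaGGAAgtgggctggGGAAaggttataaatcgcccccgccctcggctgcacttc
Kdr: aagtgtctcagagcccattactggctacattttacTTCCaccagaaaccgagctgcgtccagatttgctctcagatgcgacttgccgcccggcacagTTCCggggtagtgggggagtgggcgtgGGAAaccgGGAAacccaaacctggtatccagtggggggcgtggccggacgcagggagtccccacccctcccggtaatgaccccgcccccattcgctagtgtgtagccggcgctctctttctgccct
Tie1: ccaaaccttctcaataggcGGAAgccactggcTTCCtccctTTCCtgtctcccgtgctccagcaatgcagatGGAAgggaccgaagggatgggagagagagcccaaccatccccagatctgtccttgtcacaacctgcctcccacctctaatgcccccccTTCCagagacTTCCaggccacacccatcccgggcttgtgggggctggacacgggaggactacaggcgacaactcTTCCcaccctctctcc
Tek: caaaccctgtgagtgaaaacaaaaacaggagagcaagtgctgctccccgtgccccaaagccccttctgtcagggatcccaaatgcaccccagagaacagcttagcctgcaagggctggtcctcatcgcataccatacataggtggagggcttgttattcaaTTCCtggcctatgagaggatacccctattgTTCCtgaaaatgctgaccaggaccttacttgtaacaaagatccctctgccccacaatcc
Flt1 and Kdr each held 4 matches, Tie1 held 7 and Tek held 2. Among the 32851 promoters of the same length in the RefSeq table, 33.4% held at least 4 matches, 3.82% at least 7 and 76.8% at least 2. The second motif searched was the HIF core, ACGTG or GCGTG on either strand, where the palindrome CACGTG counts on both strands. Among the receptors it matched at 2 places in Kdr and 1 in Flt1, with no match in Flt4, Tek or Tie1, while 38.6% of all promoters held at least 1. A match describes letters in this window and not binding. The table held promoters for 8 of the 10 genes.

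Vegfb (ENSMUSG00000024962, chromosome 19 from 6982473 to 6987651) encodes a ligand of Flt1 that is abundant in heart muscle. Its FPKM was 124.7, 147.3 and 151.8 in WT hearts, against 169.2, 173.6 and 160.4 in Mc4r KO mice. All Mc4r KO libraries were above all WT libraries, and WT replicate 1 was the lowest. On the log2 scale the fold change was 0.25 (SE 0.10, unadjusted p = 0.0414, limma adjusted p = 0.222), a fold change of 1.19 (95% interval 1.01 to 1.41). Scaled to the summed FPKM outside the mitochondrial chromosome, the log2 fold change was 0.057, where the median of all genes tested was itself -0.19.

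Vegfa (ENSMUSG00000023951, chromosome 17 from 46016993 to 46032369) encodes the ligand shared by Flt1 and Kdr and is a known target of hypoxia signalling. Its FPKM was 47.4, 45.2 and 39.3 in WT mice, compared with 51.7, 62.9 and 46.0 in Mc4r KO hearts. The highest value was in Mc4r KO replicate 2, and Mc4r KO replicate 3 lay below WT replicate 1, so the groups overlapped. The log2 fold change was 0.28 (95% interval -0.038 to 0.59, limma adjusted p = 0.292). It was 0.16 without Mc4r KO replicate 2. Scaled outside the mitochondrial chromosome it was 0.082, where the median of all genes tested was itself -0.19. With read GC content as a covariate it was 0.52. GC content was higher in every Mc4r KO library than in any WT library, so that setting cannot tell it apart from genotype. The GENCODE M21 annotation lists 13 transcripts of Vegfa, and the table does not separate its splice forms. The Vegfa to Vegfb ratio was 0.315 ± 0.0612 in WT and 0.318 ± 0.0394 in Mc4r KO mice (SD, n = 3 each).

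Pgf (ENSMUSG00000004791, chromosome 12 from 85166635 to 85177790) encodes placental growth factor, which binds Flt1 alone among the VEGF receptors. Its FPKM was 2.54, 2.40 and 3.03 in WT hearts, against 2.57, 2.70 and 3.41 in Mc4r KO mice. The highest library was Mc4r KO replicate 3, and the groups overlapped. This gave a log2 fold change of 0.12 (95% interval -0.25 to 0.48, limma adjusted p = 0.709).

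Vegfc (ENSMUSG00000031520, chromosome 8 from 54077606 to 54187096) encodes the lymphatic ligand of Flt4. Its FPKM was 3.33, 3.18 and 2.88 in WT mice, compared with 3.45, 2.61 and 2.55 in Mc4r KO hearts. Mc4r KO replicate 1 was the highest of all libraries and the other 2 Mc4r KO libraries were the lowest. On the log2 scale the fold change was -0.13 (95% interval -0.48 to 0.21, limma adjusted p = 0.641).

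Angpt1 (ENSMUSG00000022309, chromosome 15 from 42424723 to 42676977) encodes angiopoietin-1, the activating ligand of Tek, and was the most variable of the 10 genes, with a coefficient of variation of 60.8% over all libraries, beside 23.1% for Angpt2 as the next. Its FPKM was 5.75, 4.78 and 13.9 in WT hearts, against 4.36, 3.29 and 5.82 in Mc4r KO mice. WT replicate 3 was above every other library, and the remaining WT values lay among those of the Mc4r KO mice. The log2 fold change was -0.72 with all libraries (SE 0.40, 95% interval -1.66 to 0.22, limma adjusted p = 0.355) and -0.26 without WT replicate 3 (limma adjusted p = 0.542).

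WT replicate 3 was also the library with the most atrial transcript. The 4 atrial markers summed to 28.6, 95.2 and 747.1 FPKM in the WT libraries and to 136.3, 6.29 and 43.7 in Mc4r KO hearts. Below WT replicate 3 the order of the libraries was not shared, since Mc4r KO replicate 3 had the second highest Angpt1 with little Myl7. Leaving out WT replicate 3 and Mc4r KO replicate 1 together gave a log2 fold change of -0.25 for Angpt1 (limma adjusted p = 0.636). The part of atrial tissue in the Angpt1 difference was not tested. In whole tissue, fewer cells of a type and less RNA per cell cannot be told apart for any of these genes.

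**Figure D3:**
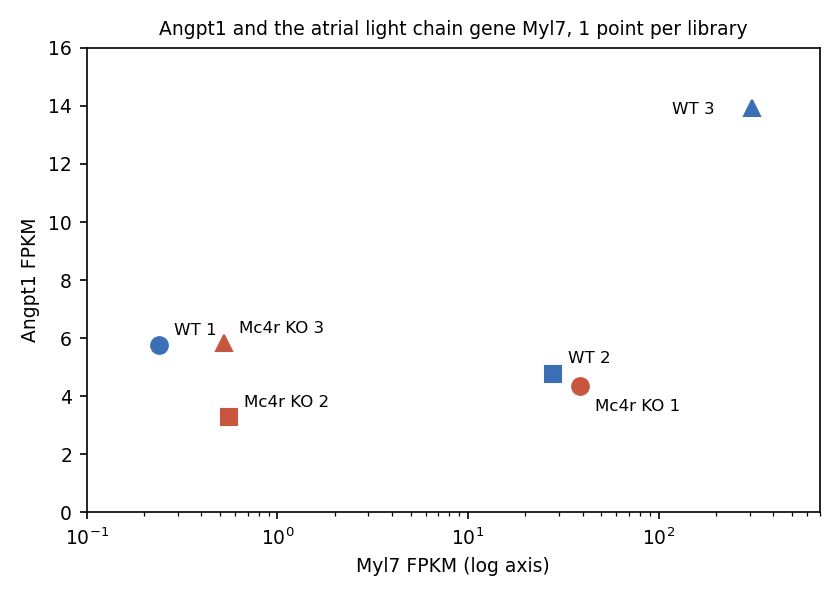
FPKM of Angpt1 (vertical axis, from 0) against FPKM of Myl7 (horizontal log axis), 1 point per library, with WT in blue and Mc4r KO in red. WT replicate 3 stands at 13.9 for Angpt1 and 307.0 for Myl7, and the other 5 libraries lie between 3.29 and 5.82 for Angpt1.

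Reads of Angpt1 could also be shared with Gm17473, a gene on the opposite strand whose exons cover 14.2% of the Angpt1 exons and which is named here for that overlap. Gm17473 had 3, 9 and 16 reads in WT mice, compared with 5, 6 and 21 in Mc4r KO mice, where Angpt1 had between 260 and 1235. The use of strand in the counting is not given in the sources used here. For each of the other 9 genes no exon of another gene overlapped, and at most 0.377% of their 50-base words occurred in other genes.

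Angpt2 (ENSMUSG00000031465, chromosome 8 from 18690263 to 18741562) encodes angiopoietin-2, which endothelial cells release and which can block Tek. Its FPKM was 1.56, 0.962 and 1.13 in WT hearts, against 1.27, 1.11 and 0.794 in Mc4r KO hearts. The groups overlapped, with log2 fold change -0.18 (95% interval -0.75 to 0.38, limma adjusted p = 0.705). Without 1 library it ran from -0.33 (without WT replicate 2) to -0.0053 (without WT replicate 1). The Angpt2 to Angpt1 ratio was lowest in WT replicate 3, at 0.0811, and ran from 0.136 to 0.336 in the other libraries.

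**Figure D4:**
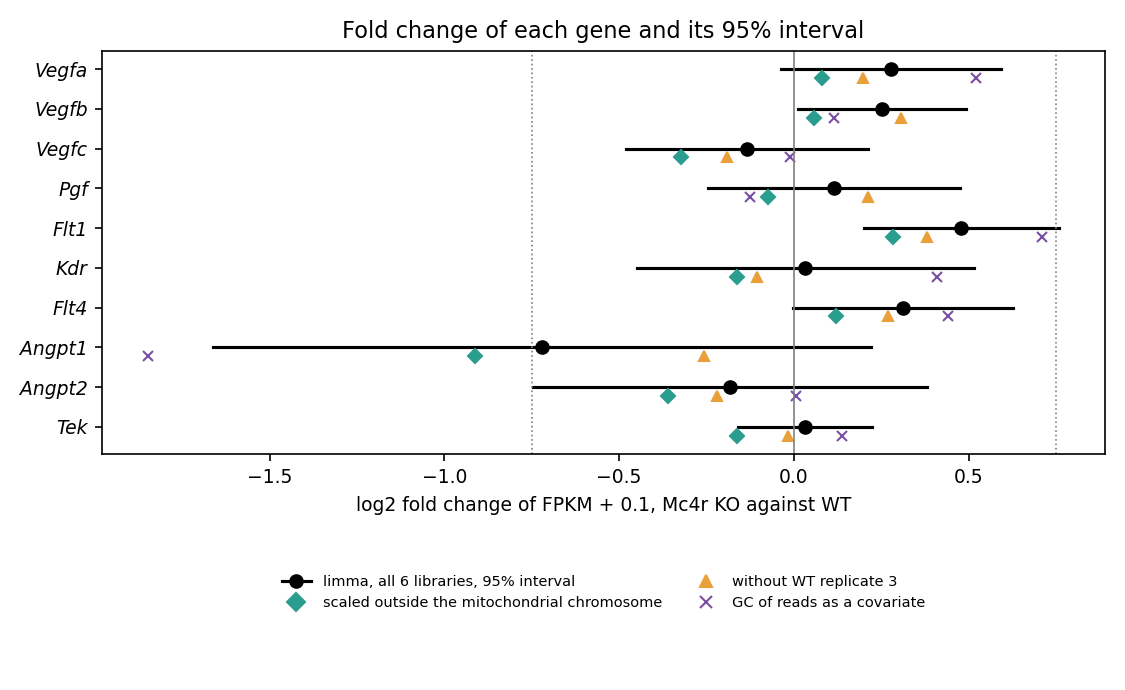
Log2 fold change of FPKM + 0.1, Mc4r KO against WT (horizontal axis), for each of the 10 genes, with the limma estimate from all 6 libraries and its 95% interval in black and 3 alternatives as symbols (green diamonds for scaling outside the mitochondrial chromosome, orange triangles for all libraries but WT replicate 3, purple crosses for GC content as a covariate); dotted lines mark 0.75 in either direction. Only the intervals of Flt1 (0.20 to 0.76) and Vegfb (0.013 to 0.49) lie above 0, and Angpt1 moves from -0.72 to -0.26 without WT replicate 3. GC content of the reads is higher in every Mc4r KO library than in any WT library.

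The partners of the family were read from a list of 9 genes. In the fit over all genes 1 of them had a positive and 8 a negative log2 fold change, and none passed the test. The median was -0.34, beside -0.011 for all genes tested. At an unadjusted p under 0.05 there were 4 lower in the Mc4r KO mice, where the background in that direction was 8.83%, and 1 higher, Tie1.

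The co-receptors lay on the opposite side from Flt1. Nrp1, the neuropilin that assembles with Kdr, had a log2 fold change of -0.31 (SE 0.11, limma adjusted p = 0.190), from 16.3, 17.4 and 15.8 FPKM in the WT libraries to 13.4, 15.1 and 11.6 in Mc4r KO mice, without overlap. Nrp2, the neuropilin of lymphatic vessels and veins, was at 6.71 ± 0.980 in WT and 4.90 ± 1.08 in Mc4r KO mice (SD, n = 3 each; limma adjusted p = 0.225). Neither passed the threshold. Vegfd, the second ligand of Flt4, was at 1.94, 1.24 and 1.63 FPKM in WT mice, compared with 0.990, 1.20 and 0.621 in Mc4r KO hearts, a log2 fold change of -0.74 (SE 0.27, limma adjusted p = 0.184). Vegfd rested on only 24 to 67 reads per library.

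Ccbe1 and Adamts3, which act together in the processing of VEGF-C, had log2 fold changes of -0.74 (limma adjusted p = 0.121) and -0.34 (limma adjusted p = 0.464). For Ccbe1 the groups did not overlap, at 2.06 ± 0.528 FPKM in WT and 1.18 ± 0.136 in Mc4r KO mice (SD, n = 3 each). With limma voom on the recovered reads Ccbe1 was called, at -0.79 (adjusted p = 0.0448), beside 1.76% of all genes. It was called in only this 1 of the 17 alternatives. Without WT replicate 3, its highest library, it was at -0.56 (limma adjusted p = 0.108). Ptprb, the endothelial phosphatase that acts on Tek, had a log2 fold change of -0.070, Svep1, a matrix protein that binds Tie1, one of -0.17, and Angpt4, a weakly expressed angiopoietin, one of -0.58 (adjusted p between 0.567 and 0.816, limma).

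Downstream of the receptors, 24 of 25 signalling genes were tested and none passed. Their median log2 fold change was -0.053, with 10 positive and 14 negative. Mapkapk2, a kinase of the p38 branch that phosphorylates Hspb1, had the smallest p, with 83.1 ± 7.66 FPKM in WT and 132.7 ± 20.4 in Mc4r KO mice (SD, n = 3 each) and 0.67 on the log2 fold scale (limma adjusted p = 0.07). Pik3r1, the regulatory subunit of phosphoinositide 3-kinase, followed at 0.47 (limma adjusted p = 0.137), and Cdc42, a small GTPase, at -0.25 (limma adjusted p = 0.200).

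Genes that VEGF is known to induce in endothelial cells had mostly negative log2 fold changes, 14 of 18, with a median of -0.30, although none passed the test. At an unadjusted p under 0.05 there were 5 lower and 0 higher, beside 8.83% and 12% of all genes tested in these directions. F3, tissue factor, had a log2 fold change of -0.51 (limma adjusted p = 0.0702), Cxcr4, a chemokine receptor of sprouting cells, one of -0.57 (limma adjusted p = 0.102) and Nr4a1, an early response nuclear receptor, one of -0.59 (limma adjusted p = 0.133). In these 3 genes the groups did not overlap. Over the list this held for 5 lower genes and 1 higher, beside 12.4% and 14.1% of all genes tested. The higher one was Rcan1, named after its value was seen, at 0.19 (limma adjusted p = 0.314). Which cells of the heart carried these transcripts was not tested.

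The largest values in that list belonged to Esm1 and Apln, 2 markers of endothelial tip cells that are named here after their values were seen. Apln, the ligand apelin, was at 9.17, 5.84 and 4.83 FPKM in WT hearts, against 3.23, 4.33 and 1.94 in Mc4r KO mice, a log2 fold change of -1.06 (SE 0.33, limma adjusted p = 0.141). Esm1, the secreted endocan, was at 2.20, 1.43 and 0.616 in WT mice, compared with 0.860, 0.345 and 0.386 in Mc4r KO hearts, a log2 fold change of -1.20 (SE 0.48, limma adjusted p = 0.218). Esm1 rested on only 11 to 65 reads per library. For Apln the groups were apart, and for Esm1 they were not. Esm1 was called when WT replicate 3 and Mc4r KO replicate 1 were both left out, at -2.01 (limma adjusted p = 0.0421), but was at -0.82 without WT replicate 1 (limma adjusted p = 0.470) and at -0.14 with the GC covariate (limma adjusted p = 0.949). The GC covariate brought Apln to -0.41 (limma adjusted p = 0.772). Read GC content separated the groups, so in this setting it cannot be told apart from genotype.

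**Figure D5:**
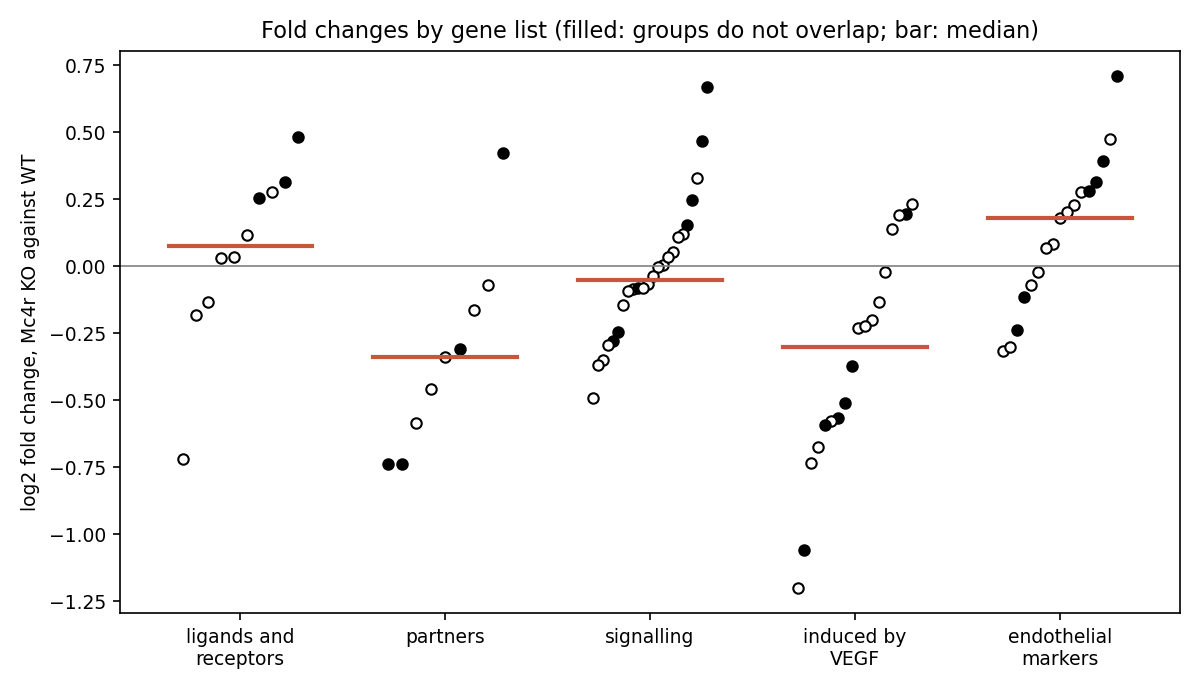
Log2 fold change, Mc4r KO against WT (vertical axis), of each tested gene in 5 lists, with filled points where the groups do not overlap and a red bar at the median of the list. The medians are 0.074 for the 10 ligands and receptors, -0.34 for partners, -0.053 for signalling, -0.30 for genes induced by VEGF and 0.18 for endothelial markers.

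Markers of the cells that carry the receptors are given beside these values, and their part in the results was not tested. Of 17 endothelial markers 11 had a positive log2 fold change, with a median of 0.18, and none was at 0. Their summed FPKM was between 488.5 and 570.7 in WT and between 577.1 and 637.1 in Mc4r KO mice. The largest part of these sums was 1 gene, Aqp1, with 166.9 to 226.9 FPKM in WT and 226.5 to 241.0 in Mc4r KO mice, with overlap. The sums therefore do not describe the set as a whole. Gpihbp1, which holds lipoprotein lipase on capillaries, had an adjusted p of 0.0434 (limma) at a log2 fold change of 0.71, short of the fold needed for a call, and over the alternatives this p ran from 0.00827 to 0.220. Esam and Egfl7 followed at 0.28 (limma adjusted p = 0.116) and 0.32 (limma adjusted p = 0.166). Over the list 5 markers were higher and 1 lower at an unadjusted p under 0.05 (limma), beside 12% and 8.83% of all genes tested. The lower one was Erg, named after its value was seen, at -0.24 without overlap (limma adjusted p = 0.236). The groups did not overlap for 4 higher and 2 lower markers, beside 14.1% and 12.4% of all genes tested. The 2 endothelial genes used in the ratios had opposite signs, with Pecam1 at 0.18 (limma adjusted p = 0.419) and Cdh5 at -0.070 (limma adjusted p = 0.786). Of 9 markers of pericytes and smooth muscle, cells that express Angpt1, none passed, and their median was -0.033, with sums from 290.7 to 377.7 FPKM in WT and from 262.8 to 352.9 in Mc4r KO mice. The largest part of these sums was again 1 gene, Rgs5, with a mean of 185.2 FPKM in WT and 144.5 in Mc4r KO mice.

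Finally, the genes whose log2 FPKM followed each member most closely over the 6 libraries were listed from 10218 protein-coding genes whose mean FPKM reached 1. The r values are descriptions over 6 points that share library and depth. Flt1 was followed most closely by Gm14410, Arfgef2 and Thbd (r from 0.986 to 0.999), Kdr by Sec61b, Rala and Ttc32 (0.964 to 0.994), Flt4 by Txn2, Coq10a and Adamts9 (0.994 to 0.995) and Tek by Ubl7, Shmt2 and Psmd8 (0.975 to 0.985). Thbd encodes thrombomodulin, a surface protein of endothelial cells. Among the ligands, Vegfb was closest to Psmc5, Dapk3 and Creld2 (r above 0.998), Vegfa to Mmachc, Tmem126b and Cma1 (0.987 to 0.994), Vegfc to Cmpk1, H3f3b and Mrpl39 (0.983 to 0.994) and Pgf to Ap5z1, Dglucy and Fbxl14 (0.968 to 0.994). Angpt1 was closest to Sned1, Snn and Fgl2 (0.985 to 0.986), and Angpt2 to Dpysl2, Ttyh2 and Pdcd10 (0.978 to 0.989). An r above 0.9 was common for Vegfb, with 628 genes, and rare for Pgf, with 37.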

How the data were processed

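Polyadenylated RNA of 6 hearts was sequenced as paired reads. The authors aligned the reads to mm10 with HISAT2 2.0.5, counted them on genes with featureCounts and deposited FPKM for each gene and library. FPKM times gene length gave whole multiples of 1 step for 100% of the values up to 10000 reads (tolerance 0.01 reads), so reads per gene were recovered. The deposited positions and lengths of the members match GENCODE M21. The main test was limma 3.58.1 (R 4.3.3) on log2(FPKM + 0.1) with an empirical Bayes trend, without covariate, over the 18035 genes whose mean FPKM reached 0.1, after median-of-ratios scaling. The median-of-ratios factor of the deposited values was 1.00583 in every library, so they were already scaled this way and this step changed no comparison. P-values are two-sided and Benjamini-Hochberg adjusted over all genes tested. The scale understates fold changes of low genes. An exact permutation test of 3 against 3 cannot give a p below 0.1 and was not used. The script was tested on simulated data. Each member was named, as were the partners, the genes of the other lists with an adjusted p under 0.05, the 3 with the smallest p in the signalling, induced and endothelial lists, and the 3 closest genes per member. Other cell type lists hold lymphatic, pericyte and smooth muscle, cardiomyocyte, atrial, fibroblast, macrophage, adipocyte, red cell and skeletal muscle markers. Members and lists were chosen with earlier results of these data known. Of the 17 other settings tried, 1 was chosen after seeing the data, and all are given in the closing section. Read GC content, used as a covariate in 1 setting, came from the study's supplement. It was higher in every Mc4r KO library than in any WT library, so genotype and GC content cannot be told apart there. Plots used matplotlib 3.10.9.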

Additional observations from a re-analysis of the deposited data

How the results depend on the processing

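No member was called with limma or limma voom under any of the 17 alternatives, and the count stayed at 0. The number of genes called over the whole table, 83 (57 higher and 26 lower), was 44 with a pseudocount of 1, 84 with one of 0.01, 22 without a filter on low values, 147 at a mean FPKM of at least 1, 49 after quantile normalization, 204 when protein-coding genes were tested, 317 by limma voom and 1 with read GC content as covariate. Scaling without mitochondrial transcripts gave 41 (16 higher and 25 lower), with the median of all genes moved by -0.18. The count lay between 7 and 726 without 1 library, the highest without WT replicate 3. Leaving out WT replicate 3 and Mc4r KO replicate 1 together, chosen after seeing the data, gave 437. With the replicate number as a block, 11 genes were called. Deviations of same-numbered libraries from their group means had r = -0.14, 0.0074 and -0.082. These r values cannot show whether mice of the same number were littermates or were handled together.

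Flt1 kept a positive sign under all 17 alternatives (0.29 to 0.71, adjusted p 0.0395 to 0.312), as did Vegfa, Vegfb and Flt4, and Vegfc and Angpt1 (-1.85 with the GC covariate to -0.25) kept a negative one. Scaling outside the mitochondrial chromosome turned Pgf to -0.073, Kdr to -0.16 and Tek to -0.16, above the shifted median of -0.19 in each case. Quantile normalization turned Kdr to -0.11 and Tek to -0.074. The GC covariate, whose values separated the groups, turned Pgf to -0.12, Angpt2 to 0.0049 and Ptprb to 0.29. Leaving out WT replicate 3 and Mc4r KO replicate 1 turned Kdr to -0.12 and Tek to -0.026. Without 1 library each, Pgf ran from -0.0037 to 0.21, Angpt2 from -0.33 to -0.0053, Vegfa from 0.16 to 0.38, Kdr from -0.14 to 0.22, Tek from -0.017 to 0.071, Ptprb from -0.22 to 0.0070 and Svep1 from -0.36 to 0.12. The cause of these turns was not tested. Angpt1 (0.40), Angpt2 (0.24) and Kdr (0.20) had the highest standard errors of the members. Angpt2 also had the fewest reads, whereas Angpt1 had at least 260 and Kdr at least 2964 per library. Precision thus did not follow read number alone.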

Other observations

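Red cell transcripts (5 genes) summed to 4497, 859.4 and 6344 FPKM in WT replicates 1, 2 and 3 and to 1651, 663.0 and 620.3 in Mc4r KO mice, and none of the 5 passed the test in limma, with 3 lower at an unadjusted p under 0.05. Fat transcripts were nearly absent, since none of 5 adipocyte markers reached the filter on low values and Lep and Retn were at 0 in every library.

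Of 6 fibroblast markers 5 had a negative log2 fold change, with a median of -0.35 and sums of 195.8 to 203.9 FPKM in WT and 142.0 to 163.7 in Mc4r KO mice, and none passed the test in limma. Of 6 macrophage markers 4 were negative, with a median of -0.20 and sums of 55.4 to 95.4 FPKM in WT and 72.3 to 92.3 in Mc4r KO mice, and none passed. The largest part of these sums was C1qa, at a log2 fold change of 0.63, so they do not describe the set. At an unadjusted p under 0.05 (limma) 3 markers were lower and 0 higher, beside 8.83% and 12% of all genes tested. The 4 atrial markers and the 8 cardiomyocyte markers likewise held no gene past the threshold, with medians of -2.31 and 0.14, and 3 of the 6 skeletal muscle markers reached the filter, with a median of 0.27.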
